A study of Mus musculus with 18 samples.

Results

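The genes described here are Meis3, Pbx2, Pbx3, Pbx4, Pknox1 and Pknox2, which belong to the MEIS, PBX and PKNOX families of TALE homeobox genes. They were chosen by name as relatives and binding partners of the deleted genes Meis1 and Meis2, by matching Ensembl identifiers of the count table to gene symbols, and make up 6 of its 53465 gene rows. Polyadenylated RNA of mouse embryos at embryonic day 9 was sequenced in 18 libraries. Embryos labelled Control were compared with embryos in which Meis1 and Meis2 were deleted conditionally by Delta1Cre (double knockout, DKO), and 2 pieces of the axis were dissected. The posterior piece held the axial bud and the newest somites, and the anterior piece held the older part of the somite-bearing axis. There were 5 anterior control, 4 anterior DKO, 5 posterior control and 4 posterior DKO libraries. Controls had 20 to 24 somites and DKO embryos had the same range, and the labels give no allele or Cre status for the controls.

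TALE homeodomain proteins have a few additional residues in the loop between the first helices of the homeodomain. MEIS and PKNOX (also called PREP) proteins bind PBX proteins through a shared amino-terminal region, and this binding affects the nuclear localization of the partners. PBX proteins in turn bind DNA together with HOX proteins, so these families act as HOX cofactors in the somites, the neural tube and the limb fields.

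The recognition helix of the homeodomain is where the members' coding sequences can be compared directly, so its 72-base surroundings are shown for the 6 members and the 2 deleted genes. Sequences are from GENCODE M21 transcripts of mouse build GRCm38, on the coding strand from 5′ to 3′. Capitals mark the in-frame run of the codons TGG, TTN, NNN and AAN (N is any base), which was searched on the coding strand only, was found once in each of these coding sequences and was used to place the windows.
Meis3: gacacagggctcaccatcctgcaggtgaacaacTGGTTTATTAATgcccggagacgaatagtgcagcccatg
Meis1: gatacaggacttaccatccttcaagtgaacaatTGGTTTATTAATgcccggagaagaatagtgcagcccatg
Meis2: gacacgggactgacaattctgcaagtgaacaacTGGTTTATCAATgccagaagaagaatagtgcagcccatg
Pknox1: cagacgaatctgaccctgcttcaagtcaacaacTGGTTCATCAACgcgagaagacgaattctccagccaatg
Pknox2: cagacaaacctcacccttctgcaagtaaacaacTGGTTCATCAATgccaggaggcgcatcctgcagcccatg
Pbx2: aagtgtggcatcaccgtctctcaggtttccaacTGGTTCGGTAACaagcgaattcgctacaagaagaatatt
Pbx3: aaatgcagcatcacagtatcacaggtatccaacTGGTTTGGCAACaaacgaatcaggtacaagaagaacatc
Pbx4: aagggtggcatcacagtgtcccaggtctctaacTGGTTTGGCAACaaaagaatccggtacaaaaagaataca

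In these windows the third codon of the motif was GGT or GGC in the Pbx members and ATT or ATC in the Meis and Pknox genes. Meis3 shared 90.3% of bases with Meis1 and 86.1% with Meis2. It shared 69.4% with Pknox1 and 77.8% with Pknox2. The Pbx members shared 79.2% to 80.6% with each other, and Pknox1 and Pknox2 shared 80.6%. Over whole transcripts, no 61-base stretch (the read length) of any member occurred in another Meis, Pbx or Pknox gene, so a read without mismatches could be assigned to 1 of these genes. Among the members, overlapping neighbours limited Pbx2 and Pknox1. Of the 61-base stretches of Pbx2, 168 of 3632 (4.63%) also occurred in Gpsm3 on the same strand, and 97 of 7265 stretches of Pknox1 (1.34%) lay over AC166172.4 on the opposite strand. Of the deleted genes, Meis1 shared more, with 1815 of 10937 stretches (16.6%) found in other genes, mostly the overlapping Gm37818 and Gm16140, and Meis2 shared 4 of 12199.

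By GRCm38 coordinates, Meis3 (ENSMUSG00000041420) lies on chromosome 7 from 16175090 to 16186504. Pbx2 (ENSMUSG00000034673) lies on chromosome 17 from 34591266 to 34597400. Pbx3 (ENSMUSG00000038718) lies on chromosome 2 from 34171457 to 34373142. Counts are per gene, with no split by exon or transcript. Pbx4 (ENSMUSG00000031860) lies on chromosome 8 from 69832491 to 69872292. Pknox1 (ENSMUSG00000006705) lies on chromosome 17 from 31564734 to 31607693, and Pknox2 (ENSMUSG00000035934) on chromosome 9 from 36890982 to 37147407. Pbx3 and Pknox2 are read from the minus strand, and the other 4 members from the plus strand.

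Library totals ran from 12.7 to 38.2 megacounts of expected counts, so 3 counts corresponded to 0.079 to 0.233 CPM (counts per megacount, with TMM-scaled library sizes). Both libraries of control embryo 1 went against the embryo's sex label. Without that embryo the members past the threshold were the same in number in each comparison that used it (0 of 6 between genotypes in each region, 0 for the difference of the genotype effects and 4 of 6 between regions in controls). The deleted genes were present in DKO libraries, with lower mean levels than in controls. Meis1 was at 121, 113, 135, 127 and 130 CPM in the anterior controls and 89.7, 111, 98.2 and 108 CPM in the anterior DKO libraries. In the posterior piece Meis1 was at 92.5, 59.6, 99.8, 87.0 and 83.0 CPM in controls and 49.1, 71.9, 46.7 and 62.2 CPM in DKO libraries. The anterior Meis1 groups did not overlap, and the posterior ones did. Meis2 was at 195, 184, 191, 177 and 203 CPM in the anterior controls and 130, 157, 139 and 146 CPM in the anterior DKO libraries. Its posterior values were 147, 117, 151, 138 and 162 CPM in controls and 97.4, 116, 93.2 and 91.1 CPM in DKO libraries. Meis2 groups did not overlap in either region, yet neither gene passed the threshold in the test over all genes. For Meis1 and Meis2 the log2 fold changes were −0.30 and −0.41 in the anterior piece (edgeR adjusted p = 0.123 and 0.0522) and −0.55 and −0.52 in the posterior piece (edgeR adjusted p = 0.336 and 0.196). Counts per gene do not show which exons were read, and cells that never expressed the Cre keep both genes, so these values are no measure of deletion efficiency. In bulk pieces of tissue, fewer cells of a type and less RNA per cell cannot be told apart.

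Summed levels of cell type markers also differed between the pieces. Summed markers of the axial bud were at 21.9 to 31.9 CPM in anterior and 333 to 624 CPM in posterior controls, and 9 of 9 were higher posteriorly in each genotype. The 12 neural tube markers summed to 502 to 628 CPM in anterior and 234 to 329 CPM in posterior controls, and 12 of 12 fell posteriorly in each genotype. In DKO libraries the same sum was 669 to 730 CPM anteriorly and 277 to 380 CPM posteriorly. Fold changes between genotypes were above 0 for 12 of 12 markers in each region. Past the threshold were 0 markers, beside 0.0394% of all genes anteriorly and 0.0126% posteriorly. At an unadjusted edgeR p below 0.05, 8 of 12 were higher anteriorly and 2 of 12 posteriorly. The shares of all genes were 13% and 11%, in either direction. The 8 neuron markers summed to 136 to 280 CPM in anterior and 58.5 to 80.2 CPM in posterior controls, and 6 of 8 fell posteriorly in each genotype, while 1 rose in controls. The 7 neural crest markers summed to 241 to 277 CPM in anterior and 146 to 198 CPM in posterior controls, and 5 of 7 fell in controls and 6 of 7 in DKO embryos. Their sum was 278 to 329 CPM in anterior DKO libraries, above every anterior control, with 0 markers past the threshold. By an unadjusted edgeR p below 0.05, 5 of 7 were higher there, beside 13% of all genes in either direction. Mean sums in anterior and posterior controls were 24.6 and 8.80 CPM for heart and 44.9 and 87.1 CPM for gut endoderm. They were 46.2 and 77.3 CPM for surface ectoderm and 311 and 254 CPM for endothelium. The sums overlapped for heart (16.6 to 31.4 against 3.03 to 19.4 CPM) and endothelium (302 to 335 against 188 to 315 CPM). Past the threshold in controls, 2 of 5 heart markers tested and 3 of 7 endothelium markers fell. Of 6 gut endoderm markers tested 4 rose and 1 fell, and 4 of 6 surface ectoderm markers rose. The posterior surface ectoderm sum was 71.3 to 83.1 CPM in controls and 86.7 to 104 CPM in DKO libraries, with no overlap. Past the threshold were 0 of its markers, and 1 of 6 had an unadjusted edgeR p below 0.05, beside 11% of all genes. The primitive erythroid markers summed to 961 to 4640 CPM in anterior controls against 1210 to 2020 CPM in anterior DKO libraries, and to 1360 to 2210 against 1640 to 3390 CPM posteriorly. Summed markers of paraxial mesoderm and somites were at 373 to 440 CPM in anterior controls against 264 to 351 CPM in anterior DKO libraries, and at 413 to 560 against 228 to 416 CPM posteriorly. Of all these markers, only the heart gene Nkx2-5 was at 0 in every library of a group, the posterior DKO group. The part of these differences in the members' values was not tested.

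The members that passed a test did so between regions. In controls Pbx3, Meis3 and Pbx2 fell from the anterior to the posterior piece, to 0.529, 0.781 and 0.842 of their anterior level, and Pknox2 rose to 1.18 times its anterior level. These were 4 of 6 members past an adjusted p of 0.05 by edgeR's quasi-likelihood test with Benjamini-Hochberg adjustment over 15294 genes, beside 25.4% of all genes tested. By direction, 3 members fell, beside 13.3% of genes, and 1 rose, beside 12.1%. The same 4 genes had control groups that did not overlap, as did 20.1% of all genes. In DKO embryos Pbx3, Pbx2 and Pknox2 passed the threshold (3 of 6, beside 18.5% of 15777 genes), in the same directions as in controls. There 2 members fell, beside 9.7% of genes, and 1 rose, beside 8.76%. Their groups did not overlap either, which held for 23.5% of genes. The median log2 fold change of the 6 members was −0.30 in controls and −0.24 in DKO embryos, where all genes tested had medians of −0.01 and 0.01. These fits leave out the pairing of the pieces within embryos. With the embryo as a block, 5 members were called in controls (Pknox1 in addition) and 4 in DKO embryos (Meis3 in addition), and without DKO embryo 1 or 2 the unblocked DKO fit called 1. With so few members these shares describe the list and do not set it apart from other genes.

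**Figure D1:**
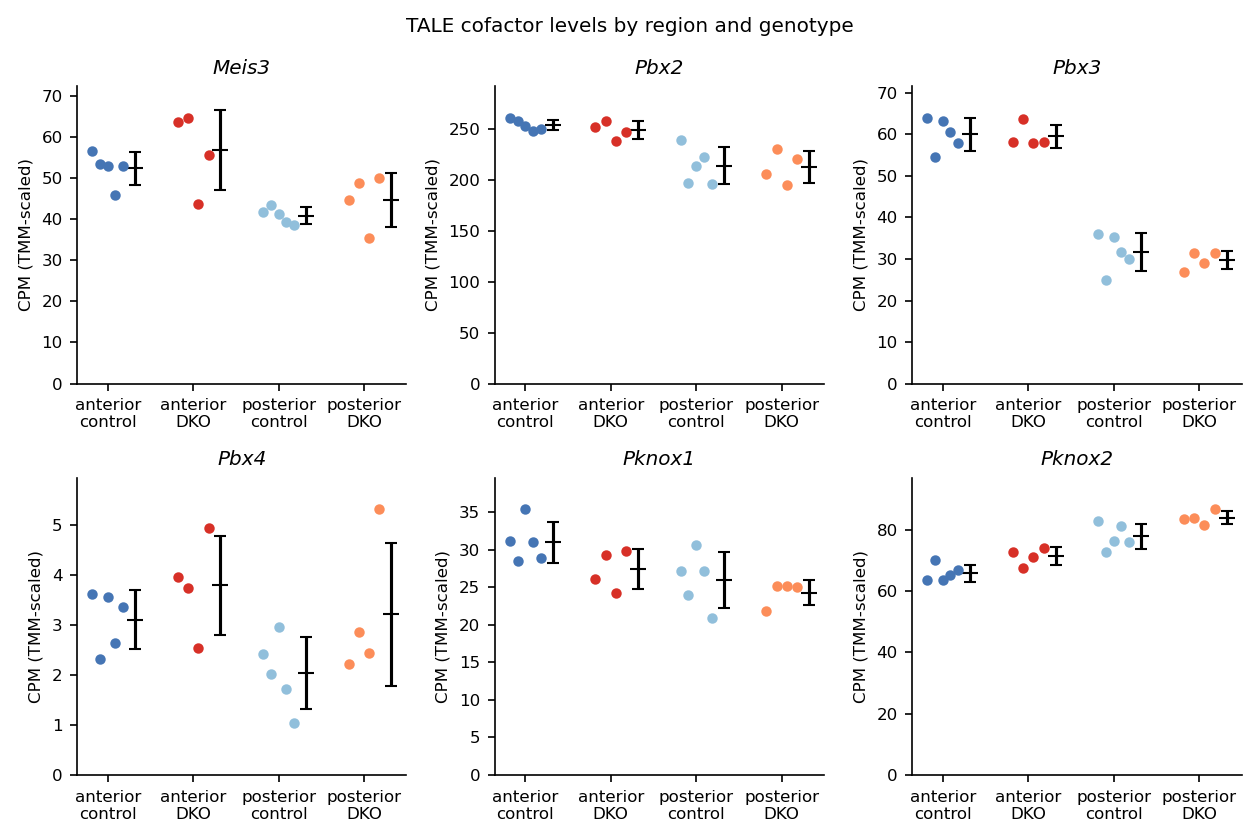
Level of each member in each of the 18 libraries (points, TMM-scaled CPM on the vertical axis) with the mean and SD of each group (black bars, n = 5 for control and 4 for DKO). Posterior Pbx3 lies between 25 and 36.1 CPM, below every anterior library, whereas the control and DKO points of each region overlap for all 6 genes.

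Between genotypes, by contrast, 0 of 6 members passed the threshold in either region. The background with edgeR was also low, with 0.0394% of 15238 genes called in the anterior and 0.0126% of 15936 genes in the posterior comparison. At an unadjusted p below 0.05, 1 of 6 members (Pknox2) was counted anteriorly (edgeR unadjusted p = 0.0246), beside 13% of genes, and 0 of 6 posteriorly, beside 11%. DESeq2 called 296 genes anteriorly and 161 posteriorly, and limma-voom 29 and 3, with 0 of 6 members in each case. Control and DKO groups overlapped for every member in both regions, while 5.08% of genes anteriorly and 4.29% posteriorly had groups that did not overlap. A test that misses the threshold does not show equal levels, and the intervals give the sizes that remain possible. For Pbx2, the most abundant member, the 95% interval of the anterior log2 fold change was −0.12 to 0.06. For Pbx4, the least abundant, the posterior interval was −0.07 to 1.35.

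**Figure D2:**
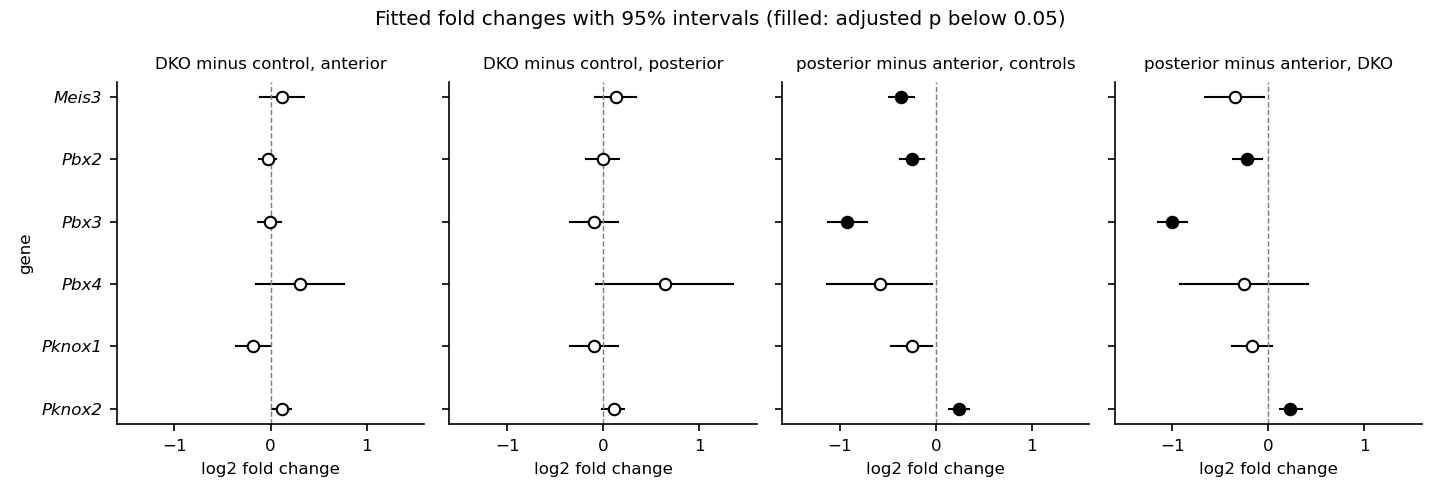
Fitted log2 fold change (horizontal axis) of each member in the 4 comparisons, with 95% intervals as lines; filled points passed an adjusted p of 0.05. No filled point appears in the genotype panels, and Pbx3 has the largest regional difference in both genotypes (−0.92 in controls and −1.0 in DKO embryos).

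Whether the genotype effect differed between the pieces was tested with an interaction term over all 18 libraries. None of the 6 members passed (0 of 16428 genes were called, 0%, and 3.45% had an unadjusted p below 0.05). The differences of the log2 fold changes, posterior minus anterior, were 0.01 for Meis3, 0.03 for Pbx2, −0.08 for Pbx3, 0.33 for Pbx4, 0.08 for Pknox1 and −0.01 for Pknox2, each with an edgeR adjusted p of 0.999. On leaving out 1 embryo the difference lay between −0.13 (without control embryo 2) and −0.04 (without DKO embryo 1) for Pbx3. For Pknox1 it lay between 0.00 (without DKO embryo 3) and 0.11, with 0.03 without control embryo 5. By edgeR, 0 of 6 members had an unadjusted p below 0.05. DESeq2 called 10 genes and limma-voom 0, with 0 members in either.

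Compared between genes per kilobase of exon, Pbx2 was the most abundant member and Pbx4 the least in all 4 groups. In anterior controls Pbx2 was at 69.8, Meis3 at 16.5, Pbx3 at 9.83, Pknox2 at 6.38, Pknox1 at 4.48 and Pbx4 at 1.40 CPM per kb. The ranges of neighbouring genes in this order did not overlap in anterior controls. For a sense of scale, 95.7% of the protein-coding genes tested had a lower level than Pbx2, 78.5% a lower level than Meis3 and 27.6% a lower level than Pbx4. The anterior order was the same in DKO libraries. In the posterior piece of both genotypes Pknox2 (7.54 in controls and 8.12 in DKO) stood above Pbx3 (5.18 and 4.87 CPM per kb), and the posterior control ranges of Pbx3 and Pknox1 overlapped. These levels divide by the summed length of all annotated exons. Dividing instead by the longest protein-coding transcript kept the order of the 6 members but placed Meis2 (51.1 CPM per kb in anterior controls) above Meis3 (28.5), whereas with all exons Meis2 was at 15.8 and Meis3 at 16.5.

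Meis3 is the MEIS family member that was not deleted. It was at 56.5, 53.5, 52.9, 45.8 and 52.9 CPM in the anterior controls and at 63.6, 64.6, 43.7 and 55.5 CPM in the anterior DKO libraries. Of the DKO values, 2 of 4 lay above every control and 1, from embryo 3, lay below every control. The means were 52.3 ± 3.94 (SD, n = 5) and 56.8 ± 9.66 CPM (n = 4), with a log2 fold change of 0.12 (SE 0.105, 95% interval −0.11 to 0.35, edgeR adjusted p = 0.672). In the posterior piece Meis3 was at 41.8, 43.5, 41.2, 39.2 and 38.5 CPM in controls and 44.7, 48.7, 35.3 and 49.9 CPM in DKO libraries. Here 3 of 4 DKO values lay above every control, and embryo 3 was again below all of them. The log2 fold change was 0.13 (SE 0.097, 95% interval −0.08 to 0.34, edgeR adjusted p = 0.592).

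The Meis3 fold change between genotypes depended on single DKO embryos. It was 0.06 anteriorly without DKO embryo 1 or 2 (edgeR adjusted p = 0.926 and 0.859) and 0.06 posteriorly without DKO embryo 4 (edgeR adjusted p = 0.899). Without DKO embryo 3 the Meis3 log2 fold change was 0.23 in each region, still short of the threshold (edgeR adjusted p = 0.304 anteriorly and 0.312 posteriorly). DKO embryo 3 had 20 somites, the fewest among the DKO embryos. Control embryo 2, also with 20 somites, had Meis3 at 53.5 CPM anteriorly and 43.5 CPM posteriorly. The neural tube markers of DKO embryo 3 summed to 669 CPM anteriorly and 277 CPM posteriorly, the lowest of the DKO embryos, though the anterior sum was above every control. Its neuron markers summed to 160 CPM anteriorly, beside 224 to 396 CPM in the other DKO embryos, and to 70.6 CPM posteriorly, within their range of 65.8 to 89.1 CPM. Its posterior library had the highest axial bud sum, at 661 CPM, of the 9 posterior libraries and the lowest paraxial mesoderm and somite sum, at 228 CPM, of all 18 libraries. In control embryo 2 the neural tube markers summed to 558 CPM anteriorly and 234 CPM posteriorly, and the neuron markers to 136 and 58.5 CPM. Its posterior library had an axial bud sum of 624 CPM and a paraxial mesoderm and somite sum of 413 CPM. The part of stage and of cell makeup in the Meis3 level of DKO embryo 3 was not tested.

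Along the axis, Meis3 was lower in the posterior piece of each embryo. The posterior minus anterior differences in log2 CPM were −0.43, −0.30, −0.36, −0.23 and −0.46 in control embryos and −0.51, −0.41, −0.31 and −0.15 in DKO embryos. All 9 embryos thus shared the direction. In controls Meis3 fell by 0.36 on the log2 scale (SE 0.0595, edgeR adjusted p = 0.000733). In DKO embryos the log2 fold change was nearly the same, −0.35, but with a larger error (SE 0.139, edgeR adjusted p = 0.123), and the highest posterior value (49.9) exceeded the lowest anterior one (43.7). With the embryo entered as a block, the DKO difference of −0.34 passed the threshold (edgeR adjusted p = 0.0158).

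The share of Meis3 within its family was followed as well, because the other members of that family are the deleted genes. Of the summed level of Meis1, Meis2 and Meis3 per kb of exon, Meis3 made up 37.3% ± 1.86 in anterior controls (range 35.0% to 39.3%) and 45.2% ± 4.64 in anterior DKO libraries (39.8% to 50.9%). In the posterior piece it made up 39.5% ± 4.37 in controls (36.3% to 47.2%) and 50.6% ± 3.04 in DKO libraries (47.7% to 53.9%). The ranges of control and DKO libraries did not overlap in either region. With the longest coding transcript as the length the shares were lower, from 29.6% in anterior controls to 41.4% in posterior DKO libraries, and the ranges again did not overlap. The sum itself was lower in DKO libraries, at 39.4 against 44.2 CPM per kb anteriorly and 27.8 against 32.8 posteriorly. Meis1 and Meis2, the genes targeted in DKO embryos, are in the denominator, with lower mean levels in DKO libraries. Meis1 also shares sequence with its overlapping neighbours. For these reasons the share is given as a description with no test.

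**Figure D3:**
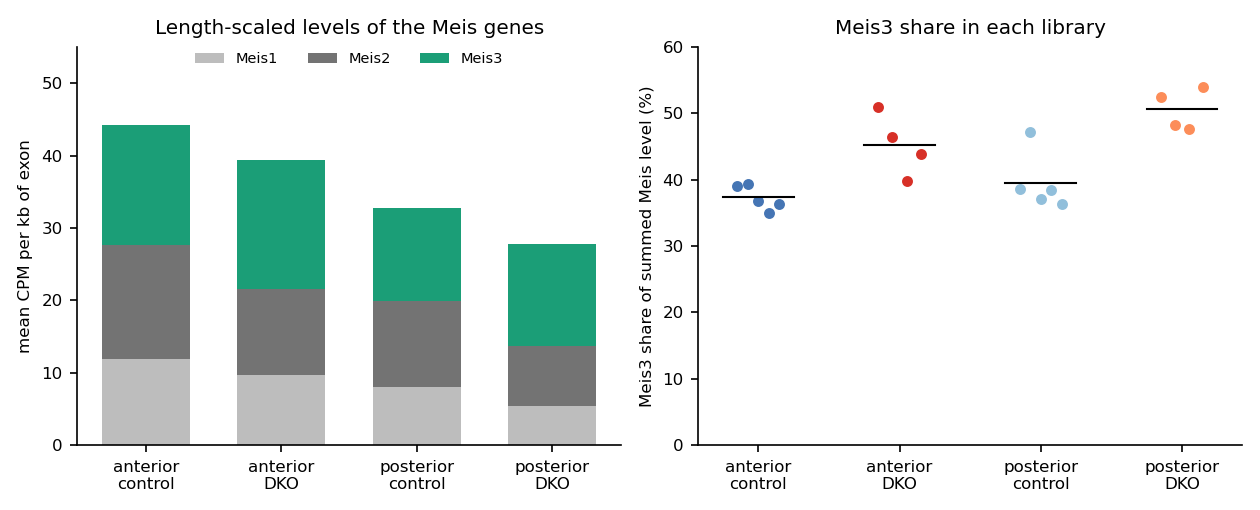
Left, stacked bars of the mean length-scaled level (CPM per kb of exon) of Meis1, Meis2 and Meis3 in each group. Right, the share of Meis3 in that sum in each library (points) with the group mean (line); DKO shares run from 39.8% to 50.9% anteriorly and 47.7% to 53.9% posteriorly, above all controls of the same region.

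Among the Pbx members, which encode the partners that MEIS and PKNOX proteins bind, Pbx3 had the steepest regional difference. Pbx3 was at 64.0, 54.5, 63.3, 60.5 and 57.9 CPM in anterior controls and 36.1, 25, 35.4, 31.8 and 30 CPM in posterior controls. Every posterior value was below every anterior value. Pbx3 fell by 0.92 on the log2 scale in controls (SE 0.0914, 95% interval −1.12 to −0.72, edgeR adjusted p = 1.13e-05). In DKO embryos it was at 58.3, 63.7, 58.0 and 58.3 CPM anteriorly and 26.9, 31.4, 29.1 and 31.5 CPM posteriorly, and the groups again did not overlap. It fell by 1.0 there (SE 0.0684, 95% interval −1.15 to −0.85, edgeR adjusted p = 8.48e-06). Within embryos the difference ran from −1.12 to −0.82 in controls and from −1.11 to −0.89 in DKO, a narrow span across 9 embryos. Between genotypes the means were almost equal, at 60 ± 3.93 and 59.6 ± 2.75 CPM anteriorly (log2 fold change −0.01, 95% interval −0.13 to 0.11, edgeR adjusted p = 0.96). Posterior means were 31.7 ± 4.51 in controls and 29.7 ± 2.18 CPM in DKO libraries (log2 fold change −0.09, 95% interval −0.34 to 0.15, edgeR adjusted p = 0.744). Leaving out 1 embryo moved that value between −0.17 (without control embryo 2) and −0.04 (without control embryo 1).

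Pbx2, the most abundant of the 3 Pbx members, varied little among the anterior libraries. It was at 261, 258, 253, 248 and 250 CPM in anterior controls and 252, 258, 238 and 247 CPM in anterior DKO libraries. The coefficient of variation of anterior controls was 2.11%, and the genotype ranges lay within 238 to 261 CPM. Posterior Pbx2 was at 239, 197, 214, 223 and 196 CPM in controls and 206, 230, 195 and 221 CPM in DKO libraries, again overlapping. Between genotypes the fold was 0.978 anteriorly and 0.997 posteriorly (edgeR adjusted p = 0.801 and 0.987). Between regions Pbx2 fell by 0.25 on the log2 scale in controls (SE 0.057, edgeR adjusted p = 0.00615) and by 0.22 in DKO embryos (SE 0.0669, edgeR adjusted p = 0.0455). Each of the 9 embryos had less Pbx2 posteriorly, by −0.39 to −0.13. The DKO call stood close to the threshold and was lost without DKO embryo 1, 2 or 3 (edgeR adjusted p = 0.265, 0.0641 and 0.17), with log2 fold changes of −0.20, −0.24 and −0.20.

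Pbx4 was measured from 16 to 143 counts per library, and its values were the most scattered. It was at 3.62, 2.32, 3.57, 2.64 and 3.37 CPM in anterior controls and 3.97, 3.75, 2.54 and 4.94 CPM in anterior DKO libraries. Posterior values were 2.42, 2.02, 2.97, 1.73 and 1.05 CPM in controls and 2.23, 2.86, 2.45 and 5.32 CPM in DKO libraries. DKO embryo 4 had the highest value in both regions, and the genotype ranges overlapped in each. The log2 fold change between genotypes was 0.31 anteriorly (SE 0.21, edgeR adjusted p = 0.578) and 0.64 posteriorly (SE 0.325, edgeR adjusted p = 0.48). Without DKO embryo 4 these values were 0.16 and 0.28. Between regions the log2 fold change was −0.58 in controls (edgeR adjusted p = 0.115) and −0.25 in DKO embryos (edgeR adjusted p = 0.649). The DKO value was −0.09 without DKO embryo 1 and −0.46 without DKO embryo 4, and the interaction of 0.33 ranged from 0.14 without DKO embryo 4 and 0.15 without control embryo 5 to 0.50 without DKO embryo 1. Control embryo 5, with a difference of −1.61, stood far below the other controls (−0.58 to −0.20), and DKO embryo 4 was the only embryo with a positive difference (0.11).

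The PKNOX genes, which encode partners of PBX proteins like the MEIS genes do, are Pknox1 and Pknox2. Pknox2 was at 63.6, 70.3, 63.7, 65.2 and 66.9 CPM in anterior controls and 82.9, 72.8, 76.4, 81.3 and 76.2 CPM in posterior controls. In DKO embryos it was at 72.9, 67.6, 71.2 and 74.2 CPM anteriorly and 83.5, 83.8, 81.5 and 86.7 CPM posteriorly. Posterior values exceeded all anterior values within each genotype. Pknox2 rose by 0.24 on the log2 scale in controls (SE 0.0483, edgeR adjusted p = 0.00256) and by 0.23 in DKO embryos (SE 0.0526, edgeR adjusted p = 0.0109). All 9 embryos had more Pknox2 posteriorly, by 0.05 to 0.38. The DKO call was lost without DKO embryo 1 (0.25, edgeR adjusted p = 0.0721) or DKO embryo 2 (0.21, edgeR adjusted p = 0.0656).

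Pknox2 also had the smallest unadjusted p of the members in the anterior genotype comparison. Its anterior mean was 65.9 ± 2.80 CPM in controls and 71.5 ± 2.85 CPM in DKO libraries, and its posterior mean 77.9 ± 4.11 and 83.9 ± 2.13 CPM. The log2 fold changes were 0.12 anteriorly (SE 0.0444, 95% interval 0.02 to 0.21, edgeR adjusted p = 0.309) and 0.11 posteriorly (SE 0.0543, 95% interval −0.01 to 0.22, edgeR adjusted p = 0.48). Neither passed over all genes, and the groups overlapped in both regions, with 1 of 4 anterior DKO values (67.6) inside the control range.

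Pknox1 was at 31.2, 28.5, 35.4, 31.1 and 28.9 CPM in anterior controls and 26.1, 29.3, 24.3 and 29.9 CPM in anterior DKO libraries. Posterior values were 27.2, 24.0, 30.6, 27.2 and 20.9 CPM in controls and 21.9, 25.2, 25.2 and 25 CPM in DKO libraries. All 4 groups overlapped their neighbours. Between genotypes the log2 fold change was −0.18 anteriorly (SE 0.0842, 95% interval −0.36 to 0.01, edgeR adjusted p = 0.403) and −0.10 posteriorly (SE 0.111, 95% interval −0.34 to 0.15, edgeR adjusted p = 0.728). The posterior value lay between −0.17 (without control embryo 5) and −0.03 (without control embryo 3) on leaving out 1 embryo. Between regions it was −0.25 in controls (SE 0.0985, edgeR adjusted p = 0.0847) and −0.17 in DKO embryos (SE 0.0928, edgeR adjusted p = 0.267). The control difference was shared by 5 of 5 embryos (−0.47 to −0.19), and with the embryo as a block it passed the threshold (−0.26, edgeR adjusted p = 0.0049). In DKO embryos 3 of 4 had less Pknox1 posteriorly, and embryo 3 had a difference of 0.05.

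Per kb of exon, Pknox2 exceeded Pknox1 in each group. Its share of the summed Pknox level was 58.8% ± 2.96 in anterior controls, 63.7% ± 2.54 in anterior DKO, 66.9% ± 2.98 in posterior controls and 69.8% ± 1.53 in posterior DKO libraries. The sum went from 10.9 CPM per kb in both anterior groups to 11.3 in posterior controls and 11.6 in posterior DKO libraries.

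**Figure D4:**
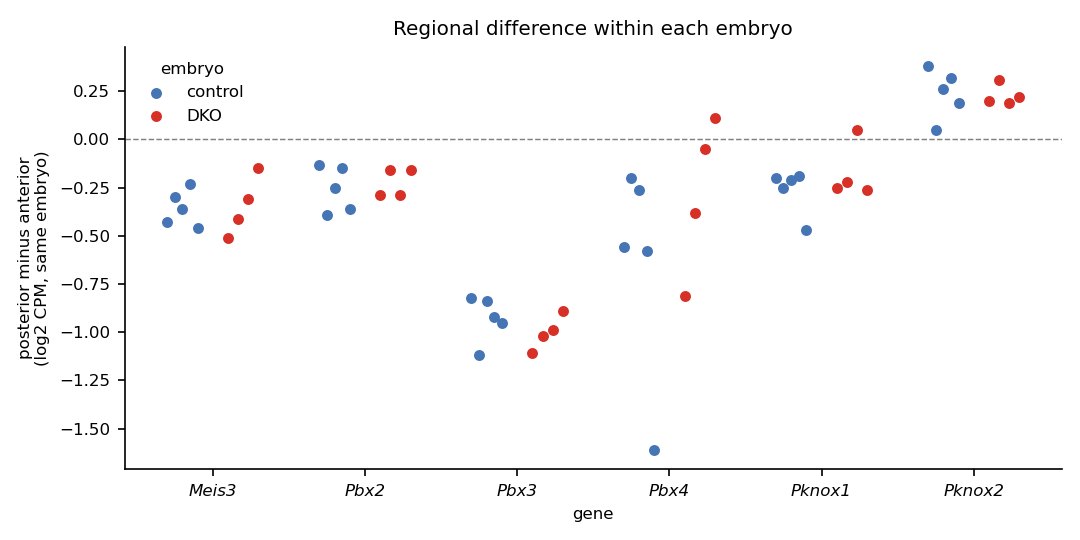
Posterior minus anterior difference in log2 CPM (vertical axis) of each member within each embryo, for 5 control (blue) and 4 DKO (red) embryos; the dashed line marks 0. All 9 embryos lie below 0 for Meis3, Pbx2 and Pbx3 and above 0 for Pknox2, and Pbx3 lies lowest in every embryo except control embryo 5, where Pbx4 is lower.

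The genes most like each member were taken as the 3 protein-coding genes with the highest Pearson correlation of log2 CPM over the 18 libraries, among 11817 genes. The libraries fall into 4 groups and 2 share each embryo, so these coefficients carry the group differences and have no p. Pbx3 was followed most closely, by Mef2c (r = 0.984), a muscle and neural crest transcription factor gene, by the netrin receptor gene Unc5a (0.978) and by Klhl41 (0.976), a muscle kelch protein gene. For Pknox2 they were Chpf (0.95), which acts in chondroitin synthesis, Cyba (0.932) and Mogs (0.926), a glucosidase of protein glycosylation. For Pbx2 they were the proprotein convertase gene Pcsk6 (0.945), Rgs16 (0.939), a regulator of G protein signalling, and Slc9a3r2 (0.936). For Meis3 they were the actin-binding protein gene Cotl1 (0.91), the nicotinic receptor subunit gene Chrnb2 (0.896) and Fbxo44 (0.894). Pbx4 and Pknox1 had the lowest coefficients, with 1110008P14Rik (0.864), Tusc2 (0.859) and Asphd2 (0.851) for Pbx4, and the cochaperone gene Dnaja4 (0.833) and Gucd1 (0.81) for Pknox1.

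TALE genes outside these families were Irx1 to Irx6, Tgif1, Tgif2 and Mkx, of which 8 of 9 were tested. Between genotypes 0 of 8 were called by edgeR in either region, beside 0.0394% of all genes anteriorly and 0.0126% posteriorly. Those with an unadjusted edgeR p below 0.05 were 4 anteriorly and 1 posteriorly, beside 13% and 11% of all genes. Their list had medians of 0.21 anteriorly and 0.23 posteriorly on the log2 scale. Between regions 2 rose and 3 fell posteriorly in controls, and the same numbers did so in DKO embryos. Of all genes, 12.1% rose and 13.3% fell in controls, and 8.76% rose and 9.7% fell in DKO embryos. Tgif1, a repressor of retinoid and TGF-beta responses, rose from 41.6 ± 2.17 to 68.5 ± 4.63 CPM in controls (log2 fold change 0.72, SE 0.0558, edgeR adjusted p = 1.53e-06), opposite in direction to Pbx3. Irx5 fell from 21.0 to 12.4 CPM (−0.77, edgeR adjusted p = 0.00524) and Irx3 from 79.4 to 56.7 CPM (−0.49, edgeR adjusted p = 0.00553), both Iroquois genes of the neural tube and other tissues. In DKO embryos the log2 fold changes were 0.88 for Tgif1, −0.76 for Irx5 and −0.54 for Irx3.

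The Hox genes, whose proteins bind DNA with PBX and MEIS, had many members that differed along the axis. Of 36 Hox genes tested in controls, 25 rose and 6 fell posteriorly, with a median log2 fold change of 1.86. Of 37 tested in DKO embryos 25 rose and 5 fell. The shares of all genes that rose and fell were 12.1% and 13.3% in controls and 8.76% and 9.7% in DKO embryos. Among those that rose in controls, Hoxc10 went from 0.058 to 133 CPM (edgeR adjusted p = 2.48e-11). Hoxa4 fell, as Pbx3 did, from 22.7 to 10 CPM (−1.19, edgeR adjusted p = 6.43e-06). So did Hoxd3, from 71.0 to 33.3 CPM (−1.10, edgeR adjusted p = 6.59e-06), and Hoxb5, from 32.8 to 15.9 CPM (−1.05, edgeR adjusted p = 2.98e-06). Between genotypes 0 of 27 Hox genes tested were called anteriorly and 0 of 38 posteriorly, beside 0.0394% and 0.0126% of all genes. Fold changes were above 0 for 11 of 27 anteriorly and 31 of 38 posteriorly, with medians of −0.04 and 0.16 on the log2 scale. The medians of all genes were 0 and 0.01. An unadjusted edgeR p below 0.05 was found for 1 anteriorly and 8 posteriorly, each higher in DKO, beside 13% and 11% of all genes. In the interaction 34 of 38 were above 0 (median 0.22). Of the retinoic acid pathway genes, 3 of 17 rose and 7 fell posteriorly in controls, beside 12.1% and 13.3% of all genes. Called between genotypes were 0 of 16 anteriorly and 0 of 18 posteriorly, beside 0.0394% and 0.0126%. At an unadjusted edgeR p below 0.05, 1 was higher and 3 were lower anteriorly, and 2 were higher and 2 lower posteriorly. Crabp1, a cellular retinoic acid binding protein gene, fell from 551 to 122 CPM (−2.17, edgeR adjusted p = 1.1e-08), and Cyp26a1, which encodes a retinoic acid degrading enzyme, rose from 3.43 to 42.9 CPM (3.68, edgeR adjusted p = 1.37e-07).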

How the data were processed

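Per the labels, polyadenylated RNA was read from single ends of 61 bases. The authors deposited 1 table of RSEM expected counts (estimated reads per Ensembl gene, not scaled between libraries). CASAVA, cutadapt and RSEM and the build GRCm38 are named in the submitters' processing notes. The aligner, the versions and the use of strand are not given in the sources used here, so reads from overlapping genes on opposite strands may not be told apart. Of 53465 identifiers, 53360 were matched to GENCODE M21 (GRCm38), and 105 were not.

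After rounding to integers, expected counts entered edgeR 4.0.16 (R 4.3.3), with filterByExpr (minimum count 10, minimum total 15), TMM scaling, glmQLFit and glmQLFTest, on all genes of the table. Benjamini-Hochberg adjustment covered the whole set of tested genes, and 0.05 was the limit for a call. Anterior and posterior comparisons of genotype used 9 libraries each, regional comparisons 10 control or 8 DKO libraries, and the interaction 18. log2 CPM used a prior count of 2. Length scaling used the union of annotated exons. All 6 members passed the filter in every comparison.

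Libraries were paired across regions by genotype, sex label and somite number, which the labels give for each. After removal of group means, libraries of the same embryo correlated at 0.256 to 0.57 over genes in 9 pairs, and those of other embryos with the same genotype at −0.283 to 0.0916. No replicate libraries were duplicates (chi-square per degree of freedom 10.7 to 47.2 over 32 pairs). The labels do not name litters.

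Alternatives were DESeq2 1.42.0, limma-voom (limma 3.58.1), RLE factors, other filters, sex label and somite number as covariates, 1 fit of all libraries, the embryo as a block, and leaving out each embryo. Upper quartile factors and the transcript length were added after seeing the data. Members and lists were chosen with earlier results of these data known. The members and deleted genes were always named. From other lists, examples came from at most 3 called genes per direction, ranked by fold change, whose groups did not overlap and whose mean was 50 counts or more. The 3 genes most correlated with each member were also named, except 1 gene that is not reported here.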

Additional observations from a re-analysis of the deposited data

Results flagged for a closer look

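In 2 of the 24 groups of libraries examined (6 genes in 4 groups), 1 value stood apart from the others by Dixon's test, which chance gives in about 1 in 20 groups. Pbx3 in the anterior DKO library of embryo 2 was at 63.7 CPM, and the gap to the nearest library was 0.948 of the range of that group. Pknox1 in the posterior DKO library of embryo 1 was at 21.9 CPM, with a gap of 0.938 of the range. In each case the other 3 libraries lay close together, and the value itself was inside the range of the controls of that region.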

How the results depend on the processing

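Of 438 alternative values of the members' fold changes, 406 kept their direction and their side of the threshold, and 0 of 6 members were called between genotypes under each alternative run. The background count of genes moved much more: 6 anterior genes became 296 with DESeq2, 29 with limma-voom, 83 with no filter, 88 with sex label and somite number as covariates, 19 in 1 fit of all libraries and 1 to 57 on leaving out an embryo (57 without DKO embryo 2, 1 without DKO embryo 1, 3 without DKO embryo 3 and 2 without control embryo 2, 3 or 5). The 2 posterior genes became 161 with DESeq2, 14 with no filter, 1 at a mean of at least 50 counts, 51 in 1 fit of all libraries and 2 to 24 on leaving out an embryo (24 without DKO embryo 2). The interaction had 10 genes with DESeq2, 0 with the replicate block and 0 to 1 on leaving out an embryo (1 without DKO embryo 2). The regional count in DKO embryos, 2913 genes and 3 members, was 1728 to 2550 genes and 1 to 3 members on leaving out an embryo (1728 without DKO embryo 1, 1 member without DKO embryo 1 or 2), 2 members with no filter or a mean of at least 50 counts (Pbx2, adjusted p = 0.0733 and 0.0509), and 4 with the covariates or with the embryo as a replicate block. The replicate block gave 5 members and 5136 genes in controls and 3004 genes in DKO embryos. Meis3 in DKO embryos passed with the covariates (−0.34, adjusted p = 0.0139) and without DKO embryo 3 (−0.35, adjusted p = 0.0277). Changes of sign were limited to values near 0: posterior Pbx2 between genotypes (0.01 with the covariates or with upper quartile factors, −0.04 to 0.04 on leaving out an embryo), anterior Pbx3 (−0.04 to 0.01), and the interaction of Meis3 (0.00 with no filter, −0.06 to 0.07), Pknox2 (−0.06 to 0.02) and Pbx2 (−0.01 to 0.06). The cause was not tested. Over all alternatives the regional adjusted p of Pbx3 stayed at or below 0.000442. Among the members depth was lowest for Pbx4, with 16 to 143 counts per library.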
